A study of Mus musculus with 6 samples.

Results

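Collagens are described here in the fetal liver of E14.5 mouse embryos with and without Tmod3, whose product, tropomodulin 3, blocks growth and loss of actin subunits at the slow end of the filament. Members were all genes whose array annotation symbol has the form of a collagen chain (Col, a type number, a, a chain number), and where a gene had more than 1 probe set the brightest was used. This gave 44 genes of the 19938 genes measured, with 11 fibrillar chains, 8 chains of basement membranes and 25 other chains. The study compared 3 livers of Tmod3-/- embryos, which the submitters describe as small and anemic, with 3 livers of Tmod3+/+ embryos described as normal, all of strain C57BL/6J. Each liver came from a separate embryo, and 1 Affymetrix array of the MoGene-1_0-st-v1 type was used for its total RNA. Which part of Tmod3 is disrupted is not given in these sources, so whether its probe set lies in that part cannot be said. Whole liver was measured, so fewer cells of a type and less RNA per cell cannot be told apart in any value below.

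Collagens are trimers of chains wound into a triple helix along repeats of glycine and 2 further residues. Fibrillar collagens assemble outside the cell into the banded fibrils of connective tissue, type IV collagens form the sheet-like network of basement membranes, and the remaining types decorate fibrils, form beaded filaments or hexagonal lattices, or span the plasma membrane. In liver, fibrillar collagens are made mainly by stellate cells and other mesenchymal cells, while endothelial cells and stellate cells contribute type IV collagen. At mid-gestation the organ is dominated by red cell precursors and hepatoblasts, and its matrix is sparse.

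The 6 arrays had medians of 1.36 to 1.43 and 75th percentiles of 1.90 to 2.02 on the log2 scale of the deposited values. Tmod3 read 1.32, 2.36 and 1.30 in knockout and 4.49, 4.78 and 4.90 in wild type livers, so each library labelled knockout lay below each labelled wild type. Hepatoblast and erythroid markers were bright in all livers, with 9 of 10 and 7 of 8 genes above the 75th percentile on all 6 arrays. Over all 19938 genes the median difference of knockout minus wild type was +0.0057, and for the 2545 genes whose level averaged 3 or more it was -0.25. Precision is limited by the number of arrays. The p-values rest on the spread between 3 livers per group, which limma draws towards that of all genes.

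Collagen genes lacked high levels on these arrays. Mean levels over the 6 arrays ran from 1.22 to 2.06, and single values from 0.92 to 2.40. The median of the mean levels was 1.55, above the 1.41 of all genes. None of the 44 genes lay above the 75th percentile on all 6 arrays, where 19.2% of all genes did, and 11 lay above it on at least 1 array. Above the array median on all 6 arrays were 18 of 44 collagen genes (40.9%), against 35.1% of all genes. These 18 comprised 8 of 11 fibrillar chains, 2 of 8 basement membrane chains and 8 of 25 others. Col4a5, Col12a1 and Col20a1 were below the median on every array. Probe sets differ in how strongly they bind their target, so no order of abundance between collagen genes is read from these levels. Levels this close to the array median leave little range in which a fall could be measured.

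**Figure D1:**
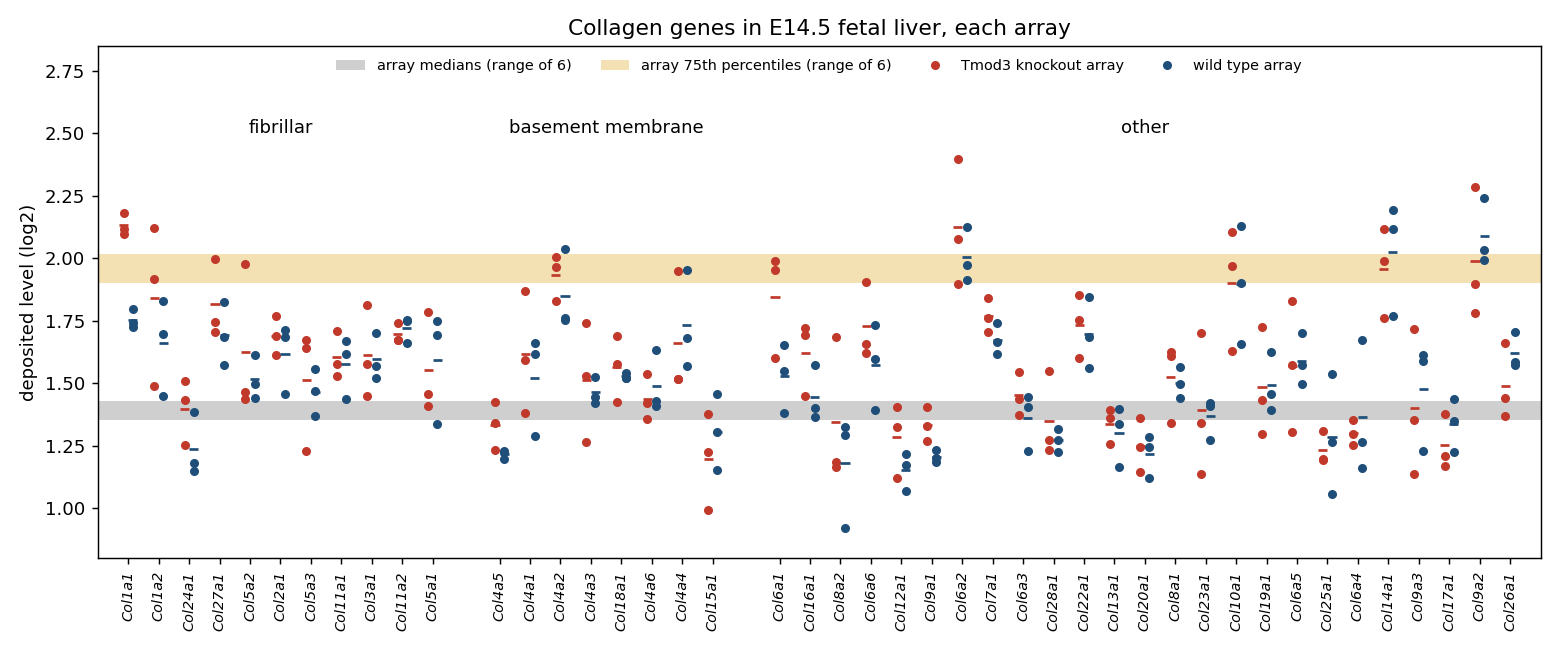
Deposited log2 levels of the 44 collagen genes (horizontal axis, by class, and ordered by difference within a class) in the 3 knockout livers (red) and 3 wild type livers (blue); short lines are group means, the grey band holds the 6 array medians and the yellow band the 6 array 75th percentiles. No gene lies above the yellow band on all 6 arrays, and the red and blue points of Col1a1 are clear of each other.

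No collagen gene passed the threshold in knockout against wild type liver. With limma and Benjamini-Hochberg adjustment over 19938 genes, 0 of 44 members had an adjusted p under 0.05, where 3 of all genes did (0.015%). The smallest adjusted p among members was 0.299, for Col1a1. The 10369 genes whose mean level fell within the range of the collagen genes, here called genes of like level, serve as a second background. At an unadjusted p under 0.05, 2 members were higher in knockout liver, Col1a1 and Col6a1, beside 2.59% of all genes and 2.85% of those of like level. At that p 0 members were lower, beside 6.44% and 2.67%. The 3 knockout arrays lay above the 3 wild type arrays for 3 members, Col1a1, Col4a5 and Col9a1, which is 6.82% of 44 against 6.14% of all genes and 6.37% of those of like level. For 0 members did they lie below, against 7.1% and 4.79%. Of the 3 genes, only Col1a1 was still free of overlap after renewed quantile normalization or after centring each array on its median.

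Differences were small throughout the family. They ran from -0.13 for Col26a1 to +0.38 for Col1a1, with a median of +0.037. Genes of like level had a median of +0.021. By class the median was +0.072 for fibrillar, +0.041 for basement membrane and +0.032 for other chains. The difference was above 0 for 30 of 44 members, compared with 51.6% of all genes and 55.9% of those of like level, and below 0 for 14, compared with 48.4% of all genes. Centring each array on its median lowered every difference by 0.037, by construction, which left 21 of 44 members (47.7%) and 41.7% of all genes above 0. The medians then were -0.00047 for all members, +0.035 for fibrillar, +0.0042 for basement membrane and -0.0049 for other chains, where the median of all genes was -0.031. The limma standard errors of members ran from 0.093 to 0.18. The 95% interval of the difference stayed within 1 on the log2 scale, which is a 2-fold change of the deposited values, for all 44 members, and within 0.5 for 40. Its outermost bounds were -0.47 for Col9a3 and 0.63 for Col6a1.

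**Figure D2:**
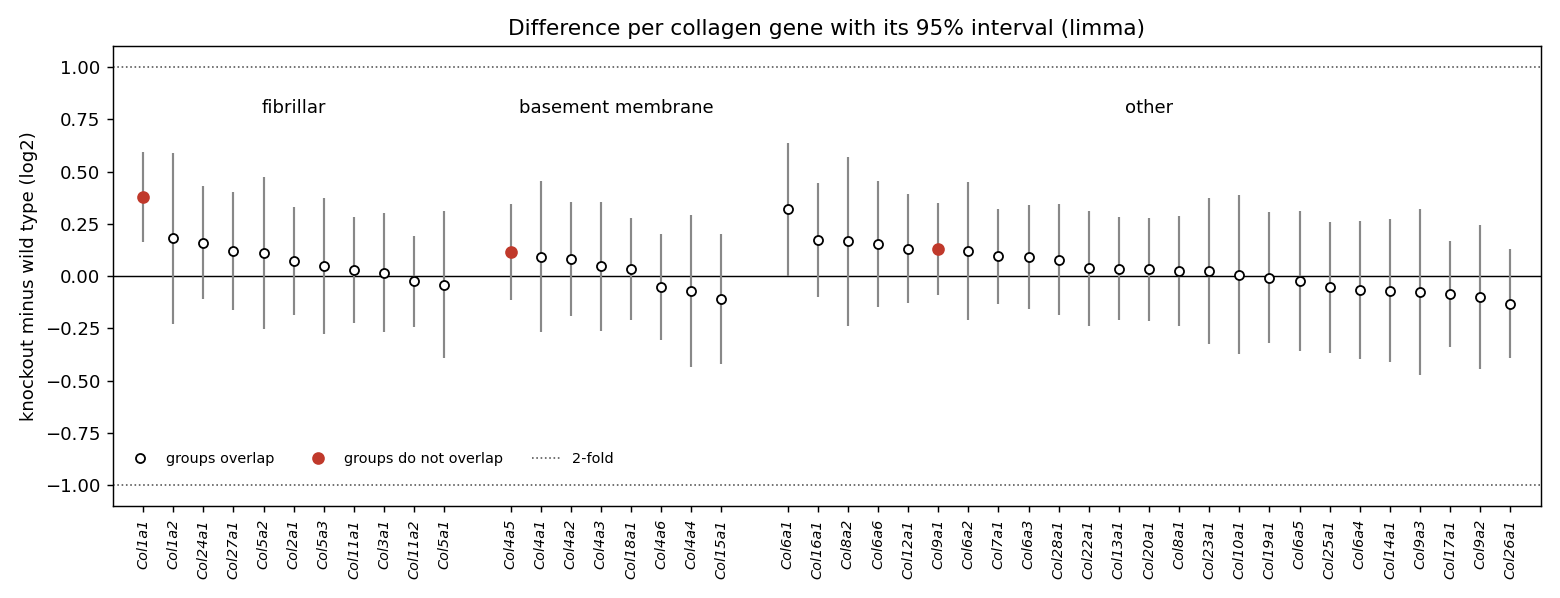
Difference of knockout minus wild type liver in log2 units for each collagen gene (circles) with its 95% interval from limma (bars), by class; dotted lines mark a 2-fold change, and filled circles mark genes whose 3 knockout arrays do not overlap the 3 wild type arrays. All bars lie inside the dotted lines, and Col1a1 and Col6a1 are the members whose bar does not cross 0.

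Among the fibrillar chains, Col1a1 stood highest in difference. Col1a1 and Col1a2 encode the chains of type I collagen, the main fibril of connective tissue. Col1a1 read 2.18, 2.12 and 2.10 in knockout and 1.74, 1.73 and 1.80 in wild type livers. The groups did not overlap, and the lowest knockout array exceeded the highest wild type array by more than the spread within either group. The group means were 2.13 ± 0.043 against 1.76 ± 0.037 (SD, n = 3 each). The difference was +0.38 with a limma SE of 0.093 (95% interval 0.16 to 0.59, limma adjusted p = 0.299). That SE exceeds both SDs, since limma draws the spread of each gene towards that of all genes. Col1a1 did not pass in any of 14 alternative analyses, with differences from +0.34 to +0.42 and adjusted p from 0.128 to 0.827, and its unadjusted p stayed under 0.05 in all 14. Its partner Col1a2 read 1.49, 1.92 and 2.12 in knockout and 1.45, 1.83 and 1.70 in wild type livers. Knockout livers 2 and 3 were the highest of the 6, and knockout liver 1 lay below wild type livers 2 and 3, so the groups overlapped. The difference was +0.18 with an SE of 0.18 (limma adjusted p = 0.827). It was +0.36 without knockout replicate 1, with an unadjusted limma p under 0.05, and +0.042 without knockout replicate 3.

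Type III and type V collagens, which form mixed fibrils with type I, gave no such separation. Col3a1, the single chain of type III collagen, read 1.45, 1.81 and 1.58 in knockout and 1.57, 1.52 and 1.70 in wild type livers. The wild type values lay inside the knockout range, and the difference was +0.016 (95% interval -0.27 to 0.30). Col5a1 and Col5a2 encode the main chains of type V collagen, which starts fibril assembly. Col5a1 read 1.41, 1.79 and 1.46 in knockout and 1.34, 1.69 and 1.75 in wild type livers, with a difference of -0.042. Col5a2 read 1.46, 1.44 and 1.98 in knockout and 1.50, 1.62 and 1.44 in wild type livers, with a difference of +0.11. Knockout liver 3 was the highest, and the other 5 arrays lay between 1.44 and 1.62. Col5a3 had +0.049. In limma the adjusted p of these 4 genes lay between 0.894 and 0.984. The remaining 5 fibrillar genes are Col2a1, Col11a1 and Col11a2, known for cartilage, and Col24a1 and Col27a1. Their differences ran from -0.025 for Col11a2 to +0.16 for Col24a1, and their groups overlapped.

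The basement membrane chains showed no common shift. Col4a1 and Col4a2 encode the chains of the type IV network found in nearly all basement membranes. Col4a1 read 1.87, 1.38 and 1.59 in knockout and 1.66, 1.62 and 1.29 in wild type livers, and Col4a2 read 1.97, 2.004 and 1.83 in knockout and 2.04, 1.76 and 1.75 in wild type livers. Neither gene separated the groups, and for Col4a2 the single highest liver was wild type replicate 1. The differences were +0.093 with an SE of 0.16 and +0.082 with an SE of 0.12 (limma adjusted p = 0.913 and 0.894). The median over the 8 chains was +0.041, with 5 above and 3 below 0, and -0.0055 without knockout replicate 2.

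The Col4a1 and Col4a2 genes lie head to head, and their promoter windows are shown because the chains are made as partners. In RefSeq on GRCm38.p6 the listed starts lie 21 bases apart on opposite strands of chromosome 8, with that of Col4a1 at the higher coordinate. Read from these starts, the first bases of both genes overlap, and they lie inside the stretch that both windows share. Each window runs from 250 bases before to 50 bases after the start, chr8:11312777-11313076 on the minus strand for Col4a1 and chr8:11312555-11312854 on the plus strand for Col4a2. Capitals mark the 78 bases that both windows share, each printed 5′ to 3′ on the strand of its own gene.
Col4a1: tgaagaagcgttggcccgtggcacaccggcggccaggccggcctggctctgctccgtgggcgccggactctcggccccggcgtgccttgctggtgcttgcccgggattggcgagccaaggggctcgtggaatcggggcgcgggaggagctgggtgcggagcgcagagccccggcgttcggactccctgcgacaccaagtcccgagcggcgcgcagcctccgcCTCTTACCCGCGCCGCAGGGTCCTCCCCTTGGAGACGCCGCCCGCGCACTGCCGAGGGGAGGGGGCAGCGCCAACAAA
Col4a2: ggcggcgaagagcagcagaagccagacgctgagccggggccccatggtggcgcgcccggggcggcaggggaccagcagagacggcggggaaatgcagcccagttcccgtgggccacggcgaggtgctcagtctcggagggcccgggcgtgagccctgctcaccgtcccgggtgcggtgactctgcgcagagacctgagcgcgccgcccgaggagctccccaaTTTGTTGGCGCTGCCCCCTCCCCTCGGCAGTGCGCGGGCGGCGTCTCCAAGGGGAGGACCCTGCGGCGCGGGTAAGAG
The differences of Col4a1 and Col4a2, +0.093 and +0.082, were each smaller than their SE. Knockout liver 2 was the lowest knockout liver for Col4a1 (1.38) and the highest for Col4a2 (2.004). A link between the shared stretch and these values was not tested.

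The other type IV chains form networks restricted to certain basement membranes, such as that of the kidney glomerulus. Col4a3 had a difference of +0.047, Col4a4 of -0.072, Col4a5 of +0.12 and Col4a6 of -0.052. Col4a5 read 1.34, 1.23 and 1.43 in knockout and 1.23, 1.20 and 1.22 in wild type livers. Its groups did not overlap, but the lowest knockout and the highest wild type array both read 1.23 when rounded, and all 6 values lay below the array medians (limma adjusted p = 0.800). Col15a1 and Col18a1 encode collagens of basement membrane zones, and Col18a1 is the source of the fragment endostatin. Col18a1 read 1.58, 1.69 and 1.43 in knockout and 1.54, 1.52 and 1.52 in wild type livers. The wild type arrays lay close together and inside the knockout range, and the difference was +0.035. Col15a1 had -0.11, the lowest of the class, with overlapping groups.

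Type VI collagen, which forms beaded filaments near cells, held the second largest difference of the family. Col6a1 read 1.95, 1.99 and 1.60 in knockout and 1.55, 1.65 and 1.38 in wild type livers. Knockout livers 1 and 2 lay above all wild type livers, while knockout liver 3 lay below wild type liver 2, so the groups overlapped. The difference was +0.32 with an SE of 0.14 (limma adjusted p = 0.550). Its unadjusted p stayed under 0.05 in 5 of 14 alternatives, with differences from +0.25 to +0.44 and limma adjusted p from 0.382 to 0.909. That p was lost without knockout replicate 1 or 2 or without wild type replicate 1 or 3, where fewer arrays also lower precision. Without wild type replicate 1 the difference was +0.33. With all 6 arrays that p was lost after quantile normalization, centring or the filter on dim genes. The same held with trend and robust fitting and with array weights. The partner chains of Col6a1 did not separate the groups either. Col6a2, which lies next to Col6a1 on chromosome 10, read 2.08, 1.90 and 2.40 in knockout and 1.98, 2.12 and 1.92 in wild type livers, a difference of +0.12. Col6a3 read 1.44, 1.54 and 1.37 in knockout and 1.23, 1.45 and 1.41 in wild type livers, a difference of +0.093. Both Col6a2 and Col6a3 had their highest value in a knockout liver and overlapping groups. Col6a4, Col6a5 and Col6a6 are related chains that can take the place of Col6a3. They had -0.066, -0.022 and +0.15, and the second, dimmer probe sets of Col6a5 and Col6a6 gave -0.079 and +0.097.

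Collagens that attach to the surface of fibrils were measured by 9 genes. Their median difference was +0.032, with 5 above and 4 below 0. Col14a1, a fibril-associated collagen of soft connective tissue, read 1.76, 2.12 and 1.99 in knockout and 1.77, 2.12 and 2.19 in wild type livers. The lowest liver of each group was replicate 1, and the groups overlapped (difference -0.070, 95% interval -0.41 to 0.27). Col9a1, Col9a2 and Col9a3 encode type IX collagen of cartilage. Col9a1 read 1.27, 1.41 and 1.33 in knockout and 1.19, 1.20 and 1.23 in wild type livers, so the groups did not overlap, but 5 of its 6 values lay below the array median (difference +0.13, limma adjusted p = 0.765). Col9a2 and Col9a3 had -0.10 and -0.074. Col12a1, which shares chromosome 9 with Tmod3 and is separated from it by 32 protein-coding genes of the GRCm38.p6 gene table, had +0.13 with overlapping groups. Col5a3, Col6a4, Col6a5, Col6a6 and Col7a1 lie on chromosome 9 too, with differences from -0.066 to +0.15. Col16a1 had +0.17, Col19a1 -0.0072, Col20a1 +0.032 and Col22a1 +0.037.

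The last 10 genes are 4 of lattices and anchoring fibrils, 4 of membrane-spanning collagens, and Col26a1 and Col28a1. Col8a1 and Col8a2 of the type VIII lattice had +0.026 and +0.17. Col10a1 of growth plate cartilage had +0.0059, and Col7a1 of the anchoring fibrils of skin had +0.095. The 4 membrane-spanning collagens, Col13a1, Col17a1, Col23a1 and Col25a1, ran from -0.085 to +0.036. Col26a1 had -0.13 and Col28a1 +0.079. The groups overlapped for each of the 10.

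Neighbouring collagen genes were of mixed sign. The gene table holds 8 pairs of collagen genes with no other protein-coding gene between them, and the differences had the same sign in 4. They were Col3a1 and Col5a2, Col6a1 and Col6a2, Col4a1 and Col4a2, and Col6a5 and Col6a4. Signs were opposite for Col9a1 and Col19a1, Col4a3 and Col4a4, Col6a6 and Col6a5, and Col4a5 and Col4a6.

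Promoter windows of the same kind were found for 35 of the 44 genes in the RefSeq table, 38 windows in all, and Col1a1 is among the 9 without one. The GC box GGGCGG, searched on both strands, occurred in 23 of 38 collagen windows (60.5%) and in 35.7% of all 32851 windows. The CCAAT box occurred in 13 (34.2% against 37.4%) and TATAAA in 5 (13.2% against 13.6%). ACGTG, a form of the core bound by hypoxia-inducible factors, occurred in 5 (13.2% against 19.6%). The form GCGTG of that core was not searched. None of these motifs contains another, though their end letters can be shared, and a match on either strand counted. The window of Col1a2, the partner of Col1a1, is shown because it holds 2 GC boxes and 2 CCAAT boxes, given in capitals and counted on either strand (chr6:4505368-4505667, plus strand).
Col1a2: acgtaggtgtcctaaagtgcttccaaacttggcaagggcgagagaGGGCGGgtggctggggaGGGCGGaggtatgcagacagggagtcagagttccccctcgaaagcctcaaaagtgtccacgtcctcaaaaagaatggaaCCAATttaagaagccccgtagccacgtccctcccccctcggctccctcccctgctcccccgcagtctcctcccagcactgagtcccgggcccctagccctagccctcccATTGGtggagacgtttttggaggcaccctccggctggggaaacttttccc
A match is a description of the letters and not a bound site.

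Genes that process, bind or break down collagen, chosen by their known roles, were measured by 67 members of 8 lists, and 0 passed over all genes. Their median difference was +0.023, with 4 higher (5.97%) and 2 lower at an unadjusted p under 0.05, beside 2.59% and 6.44% of all genes. Of 11 prolyl and lysyl hydroxylase genes, which modify the chains in the endoplasmic reticulum, 1 was higher at that level, the lysyl hydroxylase Plod2. Plod2 read 3.24, 3.73 and 3.24 in knockout and 2.04, 2.18 and 2.44 in wild type livers, a difference of +1.19 (limma adjusted p = 0.118). The next in rank were P4ha3 (-0.21) and the prolyl hydroxylase P4ha1 (+0.21), and the list had a median of +0.016. Among 7 genes of folding, glycosylation and export, Sec23a, a coat protein of vesicles that leave the endoplasmic reticulum, read 2.39 ± 0.052 against 3.03 ± 0.43 (SD, n = 3 each), a difference of -0.64 (limma adjusted p = 0.398). Ppib and Mia3 followed with -0.36 and -0.11, and the collagen chaperone gene Serpinh1 had +0.027. Of 7 propeptide cleavage genes, the procollagen peptidase Adamts3 had -0.36 (limma adjusted p = 0.527), Pcolce2 -0.25 and Bmp1 +0.18. The Adamts3 value is that of the brightest of its 16 probe sets. The 4 crosslinking genes gave no unadjusted p under 0.05, and Lox had +0.14, Loxl3 +0.067 and Loxl4 -0.037.

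Of 8 genes of fibril-binding proteins, Fn1 and Bgn were higher at an unadjusted p under 0.05. On all 6 arrays 5 of the 8, Dcn, Lum, Postn, Sparc and Fn1, lay above the 75th percentile, and Bgn, Fmod and Thbs2 did not. Fn1, which encodes fibronectin, read 4.40, 4.49 and 4.51 in knockout and 3.97, 4.29 and 4.02 in wild type livers, without overlap (difference +0.38, limma adjusted p = 0.398). Bgn, the small proteoglycan biglycan, read 2.01, 2.44 and 1.80 in knockout and 1.72, 1.74 and 1.56 in wild type livers, also without overlap (difference +0.41, limma adjusted p = 0.523). Sparc had +0.38 and overlapping groups. Of the 12 partners of type IV collagen in basement membranes, the laminin chain genes Lamc1 and Lamb1 had +0.33 and +0.21 and Agrn had +0.16, where Lamc1 had an unadjusted p under 0.05 (limma adjusted p = 0.533). The list had 6 members above and 6 below 0. Among 8 receptors the largest differences by p were those of Lair1 (+0.14), the integrin gene Itgb1 (+0.17) and Itga2 (-0.094). Among 10 genes of collagen breakdown they were those of Timp3 (+0.17), Mmp2 (-0.17) and Timp2 (+0.18). None of these 6 had an unadjusted p under 0.05.

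**Figure D3:**
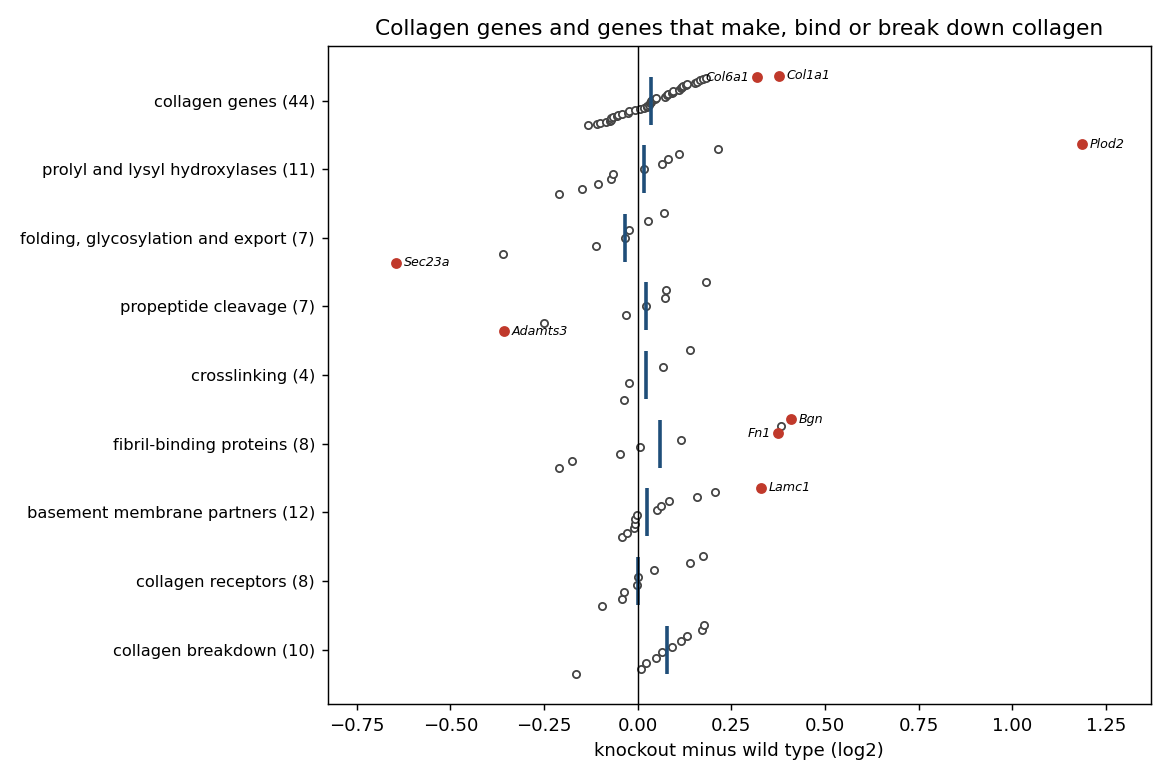
Difference of knockout minus wild type liver in log2 units (horizontal axis) for the collagen genes and 8 lists of genes that act on collagen, with the number of genes in brackets; each circle is a gene, filled and named where the unadjusted limma p is under 0.05, and vertical lines are list medians. The collagen genes crowd around 0, and Plod2 lies farthest to the right.

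Markers of the cells that make collagen had no shift past the threshold. The 15 stellate and other mesenchymal markers had mean levels of 1.51 to 1.57 in knockout and 1.41 to 1.47 in wild type arrays, with a median difference of +0.13 and 12 of 15 above 0. Without knockout replicate 1 that median was +0.050. Rgs5, a pericyte gene, had +0.35 (limma adjusted p = 0.368), Hgf -0.22, Pdgfra +0.21 and Hand2 +0.13. In this list only Reln lay above the 75th percentile on all 6 arrays. The defining stellate markers Lrat and Des had +0.14 and +0.16, with SEs of 0.15 and 0.13 (limma adjusted p = 0.844 and 0.784). They lay above the array median on 2 and 4 of the 6 arrays. The 14 endothelial markers had mean levels of 1.76 to 1.85 and 1.68 to 1.74. Their median difference was +0.092, with 9 above and 5 below 0. By smallest p came Ramp2 (+0.44), Oit3 (+0.41), Flt1 (+0.21) and Kdr (+0.18), and the lowest difference was that of Cdh5 (-0.11). Of these 14, Lyve1, Oit3 and Cdh5 lay above the 75th percentile on all 6 arrays. The 7 mesothelial markers had a median of +0.090 (-0.0031 without knockout replicate 2) and levels of 1.45 to 1.61 and 1.40 to 1.53. For the 7 cartilage markers the median was +0.10, with levels of 1.22 to 1.39 and 1.13 to 1.28, and 0 lay above the array median on all arrays. The other lists had medians below 0, at -0.62 for 10 hepatoblast and hepatocyte genes, -0.49 for 8 erythroid genes and -0.18 for 9 macrophage genes. In the hepatoblast and hepatocyte list knockout liver 3 stood apart, at a median of -0.95 from the genes' own means, with knockout livers 1 and 2 at -0.069 and +0.13, and without it the list's median difference was -0.31. Members of that list ran from -1.24 for Apoh to +0.046 for Trf, and 5 of 10 were lower at an unadjusted limma p under 0.05. After Apoh the smallest p were those of Ahsg (-1.15), Apoa1 (-0.89) and Ttr (-0.64), while Afp had +0.045 and Dlk1 -0.0071. All 8 erythroid genes were below 0, 5 of them at that p, led by Epb42 (-0.76), Alas2 (-0.63), Rhag (-0.59) and Tfrc (-0.67). Of the 9 macrophage genes 7 were below 0, 1 of them at that p. Without knockout liver 3 the collagen median was +0.043. Of all these markers 0 passed over all genes in limma. At an unadjusted p under 0.05, 3 were higher and 11 lower, beside 2.59% and 6.44% of all genes and 2.28% and 26.6% of the genes whose level averaged 3 or more. The part of cell composition in the collagen values was not tested.

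**Figure D4:**
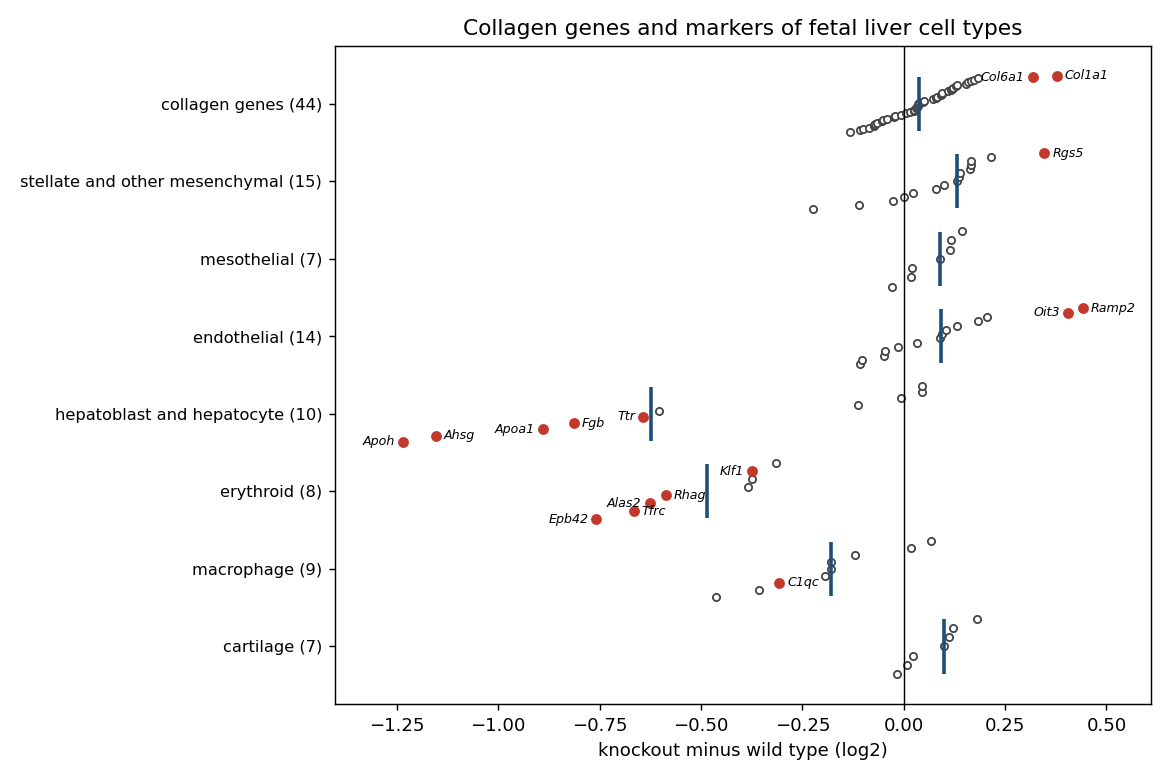
Difference of knockout minus wild type liver in log2 units (horizontal axis) for the collagen genes and 7 lists of cell type markers, drawn as in the plot of collagen-processing genes. Collagen, mesenchymal, mesothelial, endothelial and cartilage genes lie around or just above 0, and hepatocyte and erythroid genes mostly below.

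Single livers also differed in their collagen values. Relative to each gene's mean over the 6 arrays, the median collagen gene stood at -0.014, +0.096 and +0.0099 in knockout livers 1, 2 and 3 and at -0.0047, -0.046 and -0.013 in wild type livers 1, 2 and 3. Knockout liver 2 was the highest, with 27 of 44 genes above their own mean. For the fibrillar chains the median was +0.15 in that liver, with 9 of 11 above, and between -0.052 and -0.012 in the other 5. For basement membrane chains the highest median, +0.12, was that of wild type liver 1. Mean levels of the 44 genes were 1.56, 1.61 and 1.57 in knockout and 1.54, 1.51 and 1.54 in wild type livers. Those of the fibrillar chains were 1.61, 1.74 and 1.69 against 1.57, 1.58 and 1.60. In both the groups did not overlap. Col1a1, itself free of overlap, is part of both means. These means were not centred on the array medians. Those medians were 1.43, 1.40 and 1.43 in knockout and 1.43, 1.37 and 1.36 in wild type livers. The groups overlapped for basement membrane chains, for other chains and for genes of like level (1.489 to 1.503 against 1.479 to 1.492). Without knockout replicate 2, the median difference between the groups over the 11 fibrillar chains was +0.030, and over all 44 genes +0.031.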

How the data were processed

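Total RNA of 6 fetal livers was measured on Affymetrix MoGene 1.0 ST arrays, after Trizol extraction and biotin labelling per the labels' protocols. RMA was the authors' method, per the submitters' processing notes, and gave 1 value for each probe set on each array. Its log base and any later scaling are not given in those notes. The deposited values were read as log2, the scale RMA returns, and differences are in that unit. Of 28853 probe sets, 21789 had 1 gene symbol, and 1621 with several and 5443 not named in the platform table were left out. The brightest probe set over all arrays stood for each of 19938 genes. Col21a1 had no probe set with a single symbol and was not analysed here.

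The comparison used limma 3.58.1 under R 4.3.3 (lmFit and eBayes, two-sided, no covariates), with Benjamini-Hochberg adjustment over all genes, a threshold of 0.05 and no filter; the fit was tested on simulated data. Named were all members with an unadjusted p under 0.05 or without overlap, the chains of types I, III to VI, XIV, XV and XVIII with their partners, and by smallest p up to 3 genes of each collagen-processing list and up to 4 markers; the remaining members are given by value or range. Col12a1 for its chromosome, Serpinh1, Lrat, Des, Reln, Lyve1, Cdh5, Afp, Trf, Dlk1 and the fibril-binding genes beyond the first 3 were named outside that rule. Members, classes and lists were chosen with earlier results of these data known. Alternatives were renewed quantile normalization, median centring, the mean of probe sets, all probe sets, a filter on dim genes, trend with robust fitting, array weights, the replicate block and leaving out each array.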

Additional observations from a re-analysis of the deposited data

How the results depend on the processing

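In each of 14 alternatives, 0 collagen genes passed the adjusted threshold and 0 were lower at an unadjusted p under 0.05. The count without overlap, 3 higher, became 1 after renewed quantile normalization and after centring on the array median, beside 5.37% and 4.07% of all genes. It was 1 too with a filter on dim genes, beside 4.19% of the genes kept. That filter kept 32 members and removed Col4a5 and Col9a1 before testing. The count at an unadjusted p under 0.05, 2 higher, became 1 in these settings, with an intensity trend and robust fitting, and with array weights. The median of the other chains was -0.0049 after centring and +0.067 with array weights. In all 44 members, 4 signs turned after quantile normalization, 9 after centring and 4 with array weights. Among members of the naming rule these were Col3a1 after quantile normalization (-0.0022) and centring (-0.021), Col18a1 after centring (-0.0021), and Col6a4 (+0.038) and Col6a5 (+0.0060) with array weights. Centring lowers each difference by the same 0.037. For the other settings the cause was not tested. When 1 array was left out, the genes without overlap numbered 4 to 8 higher and 0 to 2 lower, beside 9.83% to 15.04% and 9.97% to 17.2% of all genes. The count higher at an unadjusted p under 0.05 was 1 to 2, beside 1.49% to 3.08% of all genes. Medians ran from 0.031 to 0.063 for all members and from -0.0056 to 0.060 for other chains. With fewer arrays in a group, more genes are free of overlap by construction. Differences of 27 of 44 members then took both signs, 12 outside the naming rule and 15 within it, the latter being Col14a1 -0.20 to 0.028, Col4a1 -0.034 to 0.21, Col5a1 -0.17 to 0.036, Col5a3 -0.029 to 0.19, Col18a1 -0.028 to 0.10, Col3a1 -0.084 to 0.099, Col4a3 -0.067 to 0.17, Col4a4 -0.22 to 0.037, Col5a2 -0.066 to 0.20, Col6a2 -0.018 to 0.23, Col6a5 -0.15 to 0.11, Col9a2 -0.25 to 0.0024, Col9a3 -0.23 to 0.058, Col4a6 -0.10 to 0.019 and Col6a4 -0.17 to 0.088. With the replicate number as a block, 0 members passed and 2 were higher at an unadjusted p under 0.05, beside 2.36% of all genes. With that block 0 of all genes passed, against 3 in the reported analysis. Over all genes the calls numbered 6 after quantile normalization, 11 with array weights, 2 with trend and robust fitting, and 0 to 95 with 1 array left out (95 when wild type replicate 1 was omitted, 1 when knockout replicate 1 was, 0 when wild type replicate 2 was). The sample titles give same-numbered livers a shared number and nothing further. Correlations of their deviations were 0.11, 0.057 and -0.11, and those of differently numbered livers ran from -0.19 to 0.19. With 3 arrays per group these values cannot tell whether the livers were paired. Signal near the array median limits what could be seen of any fall.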
